A study of Culex pipiens pallens and Culex quinquefasciatus with 12 samples.

Results

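Opsin-1 is the description that the deposited tables give to 4 of the 17757 gene models of *Culex* mosquitoes. The 2 of them described here are CPIJ004067-RA and CPIJ012052-RA. They were chosen by the difference of their read counts between *Culex pipiens pallens* and *Culex pipiens quinquefasciatus* larvae, already known from these same libraries. Their levels are therefore given as a description, with no test.

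The study sequenced poly(A) RNA of whole larvae of these 2 members of the *Culex pipiens* complex, the northern house mosquito of East Asia (pallens) and the southern house mosquito of warm regions (quinquefasciatus). There were 7 pallens libraries and 5 quinquefasciatus libraries, each from RNA of 30 pooled larvae, in libraries that do not record the strand. The title speaks of differing resistance, but the labels give no resistance level, strain, collection site, age, sex or treatment for any pool, so subspecies is the only factor that could be compared. Nothing states whether pools of a subspecies came from separate collections, so spread and p-values refer to these pools. Libraries are numbered within each subspecies in the order of deposit, which pairs none of them.

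Opsins are the protein part of visual pigments. Each binds a retinal chromophore, and the light-activated pigment starts a G protein and phospholipase C cascade that, in *Drosophila* photoreceptors, opens TRP and TRPL channels, while arrestins end the signal. Insect opsins fall into long-wavelength, blue and ultraviolet classes, and different photoreceptor cells usually use different ones. A mosquito larva sees with simple eyes called stemmata, while the adult compound eye forms beside them during larval life.

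Depth was similar over the libraries, at 3.9e6 to 4.9e6 uniquely mapped reads in pallens and 4.4e6 to 5.2e6 in quinquefasciatus. Between 14321 and 15467 gene models were read in pallens libraries, and between 14338 and 15264 in quinquefasciatus libraries. Levels of a gene across libraries are in CPM, reads per 1000000 after TMM normalization, which scales the libraries to one another, and means carry the SD over the 7 pallens or 5 quinquefasciatus libraries. Levels of different genes are compared in RPKM, which also divides by the length of the model. A count of 3 reads corresponded to 0.579 to 0.772 CPM before TMM scaling. Intervals on single libraries are exact 95% Poisson intervals and cover counting error only.

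The 2 models lie on different scaffolds. CPIJ004067-RA is on supercont3.60 from base 303692 to 304879 on the plus strand, with a model length of 1125 bases. Its span exceeds that length by 63 bases. CPIJ012052-RA is on supercont3.358 from base 153483 to 154898 on the minus strand, with a length of 1359 bases and a span that exceeds it by 57 bases. Both models thus have almost no intron sequence. The files give no exons, UTRs or build name, and most lengths (89.2%) are multiples of 3, so these are mostly coding lengths.

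The other 2 models described as opsin-1 lie together on supercont3.361. These are CPIJ011571-RA, from base 253314 to 254757, and CPIJ011573-RA, from base 260306 to 261704. Both are on the plus strand, as are a pair of models described as rhodopsin on the same scaffold, CPIJ011574-RA and CPIJ011576-RA. Of 13 models described as an opsin or rhodopsin, 8 had enough reads to be tested, and both described here are among them. The remaining 5 reached at most 8 reads in any library.

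CPIJ004067-RA was higher in every pallens pool than in any quinquefasciatus pool. In pallens libraries 1 to 7 it had 15, 84, 85, 56, 116, 309 and 604 reads, or 3.92, 18.4, 21.9, 12.1, 29.4, 68.7 and 119 CPM. In quinquefasciatus libraries 1 to 5 it had 7, 13, 15, 10 and 14 reads, or 1.34, 2.75, 2.69, 2.14 and 3.69 CPM. All 5 quinquefasciatus pools were low and close to one another, whereas the pallens pools ran from barely above them to far higher.

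The mean CPM of CPIJ004067-RA was 39.1 ± 40.9 over 7 pallens pools and 2.52 ± 0.862 over 5 quinquefasciatus pools (SD). Medians were 21.9 CPM in pallens and 2.69 CPM in quinquefasciatus, an 8.13-fold ratio, while the ratio of means was 15.5. The fitted log2 change, pallens minus quinquefasciatus, was 3.96. Pallens 7 alone carried much of the difference in means. Without that library the fitted ratio was 10.3-fold, against 15.5-fold with it, and without pallens 6 and 7 both it was 6.83-fold.

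The groups did not overlap for CPIJ004067-RA, but the gap was narrow. The lowest pallens pool, pallens 1, had 3.92 CPM (95% interval 2.19 to 6.46), and the highest quinquefasciatus pool, quinquefasciatus 5, had 3.69 CPM (2.01 to 6.18). Those 2 pools cannot be told apart at this depth. Of all 10617 genes tested, 77 (0.725%) were higher in every pallens library than in any quinquefasciatus library.

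CPIJ012052-RA was also higher in most pallens pools, though the subspecies overlapped. In pallens libraries 1 to 7 it had 78, 92, 87, 45, 71, 223 and 173 reads, or 20.4, 20.2, 22.4, 9.75, 17.99, 49.6 and 34.1 CPM. In quinquefasciatus libraries 1 to 5 it had 13, 53, 2, 1 and 15 reads, or 2.49, 11.2, 0.359, 0.214 and 3.95 CPM. The exception was quinquefasciatus 2, whose level lay between those of pallens 4 and pallens 5, and 2 quinquefasciatus pools had almost no reads of the model.

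The mean CPM of CPIJ012052-RA was 24.9 ± 13.04 over the pallens pools and 3.65 ± 4.51 over the quinquefasciatus pools (SD). Medians were 20.4 CPM in pallens and 2.49 CPM in quinquefasciatus, an 8.17-fold ratio, close to that of CPIJ004067-RA. The fitted log2 change was 2.78, a 6.86-fold ratio. Without quinquefasciatus 2 the fitted ratio was 14.6-fold. In these bulk pools, fewer cells of a type and less RNA per cell cannot be told apart.

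**Figure D1:**
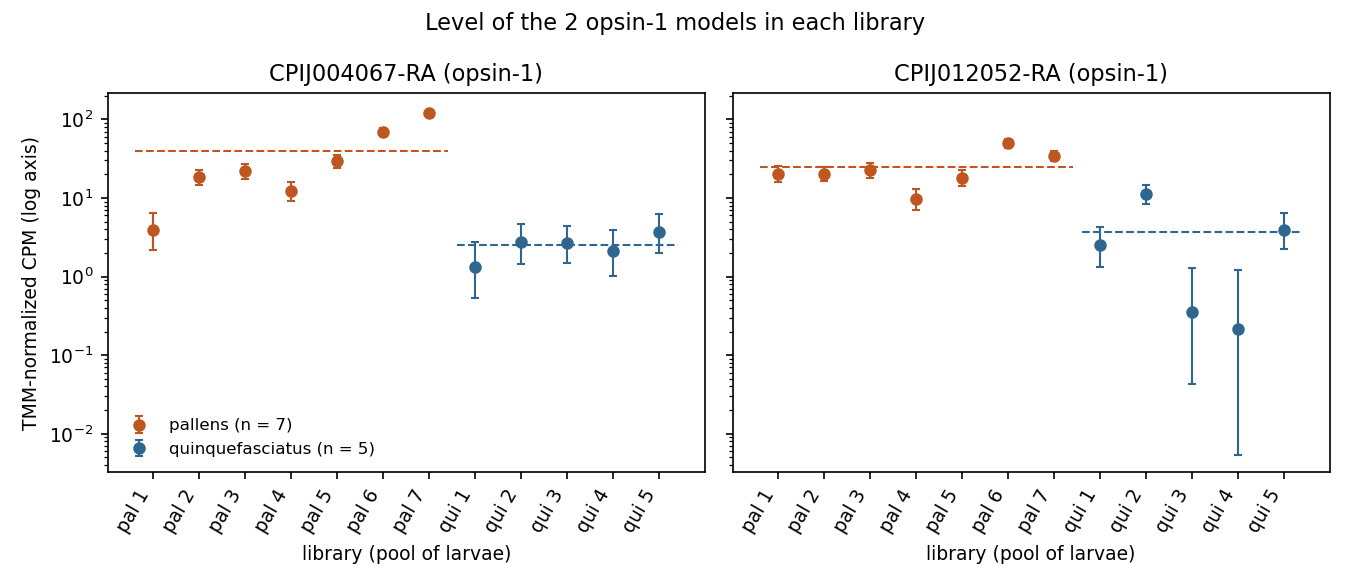
TMM-normalized CPM (log axis) of CPIJ004067-RA on the left and CPIJ012052-RA on the right, in each pallens (pal) and quinquefasciatus (qui) library. Points are libraries, bars are exact 95% Poisson intervals on the reads, and dashed lines are group means; pallens 1 sits just above the quinquefasciatus pools for CPIJ004067-RA, and quinquefasciatus 2 sits among the pallens pools for CPIJ012052-RA.

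The models varied in opposite places. Within pallens, the highest pool of CPIJ004067-RA exceeded the lowest 30.4-fold, against 2.75-fold within quinquefasciatus. For CPIJ012052-RA the range was 5.09-fold within pallens and 52.4-fold within quinquefasciatus, where the lowest pool had 1 read. On the log2(CPM + 1) scale the SD of CPIJ004067-RA was 1.52 in pallens, larger than that of 97.8% of tested genes, and 0.37 in quinquefasciatus, larger than that of 51.5%. The SD of CPIJ012052-RA was 0.70 in pallens, larger than that of 81.7% of genes, and 1.38 in quinquefasciatus, larger than that of 97.7%.

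Ordering the 12 pools by CPIJ004067-RA put pallens 7 at the top, then pallens 6, 5, 3, 2, 4 and 1, followed by quinquefasciatus 5, 2, 3, 4 and 1. Of the 11 steps between neighbours, 8 had overlapping counting intervals. The exceptions were pallens 7 above pallens 6, pallens 6 above pallens 5 and pallens 4 above pallens 1. Ordering by CPIJ012052-RA put pallens 6 at the top, then pallens 7, 3, 1, 2 and 5, followed by quinquefasciatus 2, pallens 4 and quinquefasciatus 5, 1, 3 and 4. Here 7 of the 11 steps overlapped, and the clear steps were pallens 6 above pallens 7, pallens 7 above pallens 3, pallens 4 above quinquefasciatus 5 and quinquefasciatus 1 above quinquefasciatus 3. Pallens 6 and 7 led both orders, but pallens 1, the lowest pallens pool for CPIJ004067-RA, was in the middle of the pallens pools for CPIJ012052-RA.

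Per length, the models had similar median levels but differed within libraries. The deposited RPKM of CPIJ004067-RA was 2.96 to 125 (median 18.5) in pallens and 1.23 to 2.72 (median 2.58) in quinquefasciatus. That of CPIJ012052-RA was 6.81 to 38.7 (median 15.1) in pallens and 0.142 to 8.85 (median 1.90) in quinquefasciatus. In pallens 7 CPIJ004067-RA had the higher RPKM, at 125 against 29.7 for CPIJ012052-RA, and in pallens 1 the lower, at 2.96 against 12.8.

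Reads were spread along the models where they were many. The share of CPIJ004067-RA covered by reads was 46.1% to 98.1% in pallens and 21.0% to 45.0% in quinquefasciatus. The share of CPIJ012052-RA covered was 56.3% to 87.9% in pallens and 3.61% to 67.6% in quinquefasciatus. Coverage rises with read number, so each value was set beside that of other models with like length and reads in the same library. CPIJ004067-RA was within the body of such models, with 31.4% to 84.5% of them covered less in a given library. CPIJ012052-RA was covered less than the median of like models in 10 of 12 libraries, pallens ones among them, such as pallens 4 with 56.3% against a median of 67.4%. The gap was widest in 2 quinquefasciatus pools. Its 13 reads in quinquefasciatus 1 covered 12.7%, where like models had a median of 32.5%, and its 15 reads in quinquefasciatus 5 covered 21.3%, against a median of 36.7%. In those 2 pools only 5.53% and 7.84% of like models were covered less. Sequence differences of either subspecies from the reference genome, which can cost reads, were not analysed here, and their part in these levels was not tested.

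The most abundant opsin transcript was that of the rhodopsin model CPIJ020021-RA. It held 62.3% to 79.9% of the summed RPKM of the 13 opsin models in pallens and 66.7% to 76.3% in quinquefasciatus. The opsin-1 model CPIJ011573-RA held 9.40% to 24.9% in pallens and 16.9% to 24.6% in quinquefasciatus. Against these, both models described here were minor members of the family in either subspecies.

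CPIJ004067-RA held 0.529% to 2.58% (median 1.07%) of the summed opsin RPKM in pallens and 0.0741% to 0.240% (median 0.178%) in quinquefasciatus. CPIJ012052-RA held 0.352% to 2.32% (median 0.805%) in pallens and 0.0147% to 0.354% (median 0.114%) in quinquefasciatus. The shares of CPIJ004067-RA did not overlap between the subspecies, and those of CPIJ012052-RA overlapped by the width of pallens 4 and quinquefasciatus 2. Both models were chosen for their subspecies difference, so these shares are no separate support for it. How many genes would show no overlap in such a share was not computed. The largest share of CPIJ012052-RA was in pallens 1, where the sum over the other 11 opsin models was the lowest of all 12 libraries, at 534 RPKM.

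**Figure D2:**
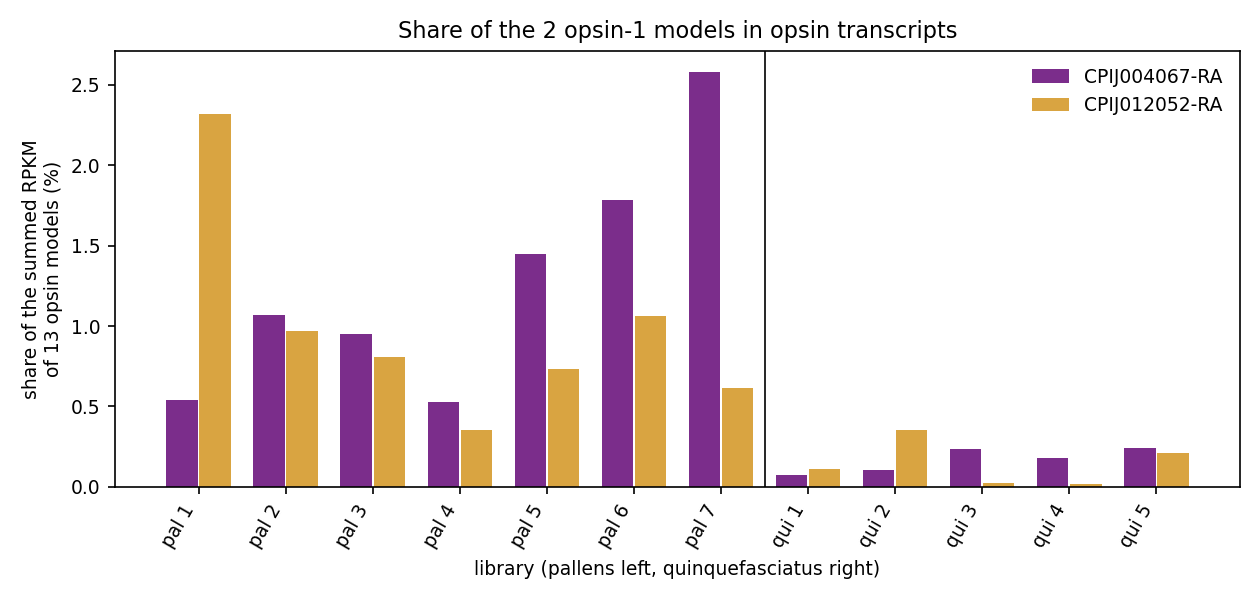
Share (%) of each of the 2 opsin-1 models in the summed RPKM of 13 opsin models, by library, with pallens (pal) left and quinquefasciatus (qui) right. Bars are single libraries with no error; the share of CPIJ004067-RA peaks in pallens 7 at 2.58% and that of CPIJ012052-RA in pallens 1 at 2.32%, while no quinquefasciatus bar exceeds 0.354%.

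Reads of the 2 models were also set against those of the rhodopsin CPIJ020021-RA alone. The models were chosen for their subspecies difference, so a difference in this ratio is no separate support for it. CPIJ004067-RA had 5.99 to 30.2 reads (median 15.5) per 1000 rhodopsin reads in pallens and 0.878 to 3.16 (median 2.32) in quinquefasciatus. CPIJ012052-RA had 4.81 to 37.8 (median 12.1) in pallens and 0.232 to 5.69 (median 1.63) in quinquefasciatus. The ratio to rhodopsin of CPIJ004067-RA did not overlap between the subspecies, and that of CPIJ012052-RA did. The share of all genes without overlap in this ratio was not computed.

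**Figure D3:**
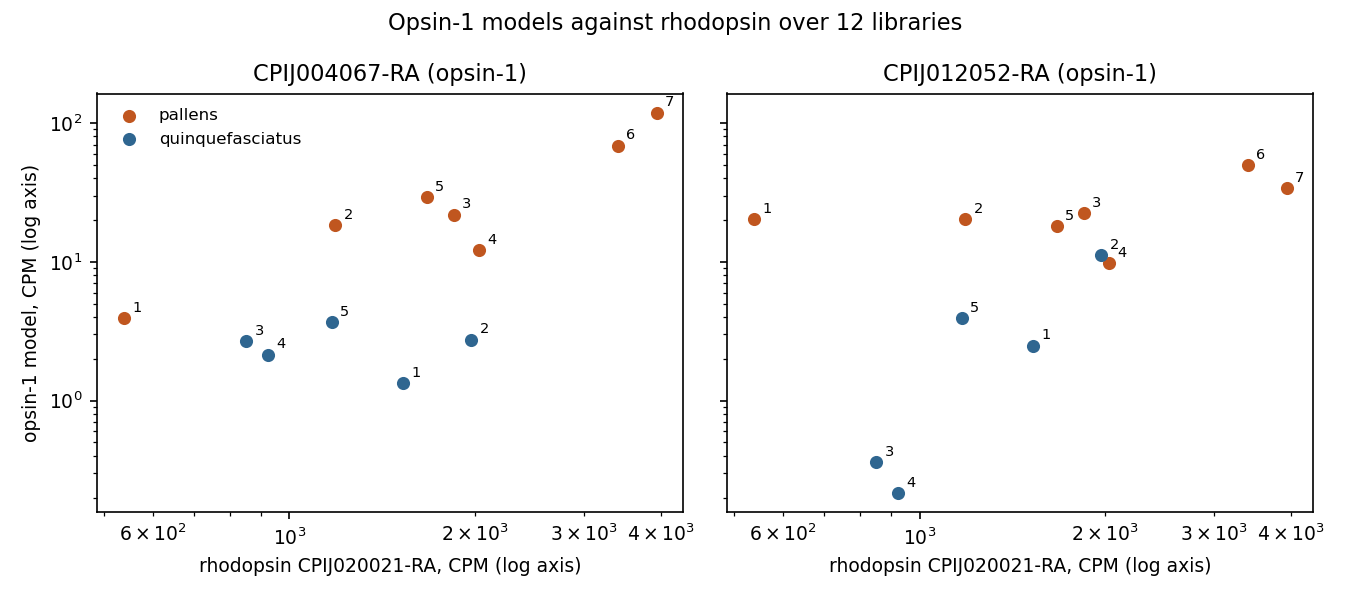
CPM of CPIJ004067-RA (left) and CPIJ012052-RA (right) against CPM of the rhodopsin CPIJ020021-RA, both on log axes, with each point a library and its number beside it. At like rhodopsin levels the pallens points lie above the quinquefasciatus points for CPIJ004067-RA, and for CPIJ012052-RA pallens 4 and quinquefasciatus 2 fall together.

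Of the other 6 tested opsins, 0 passed the edgeR quasi-likelihood test between the subspecies, fitted over all 10617 genes with Benjamini-Hochberg adjustment and a threshold of 0.05. That test called 57 genes (0.537%), of which 36 (0.339%) were higher in pallens and 21 (0.198%) lower. At an unadjusted p under 0.05 there was 1 of the 6, CPIJ013056-RA, against 13.02% of all tested genes. DESeq2 called 0 of the 6, against 2.78% of all tested genes. The libraries of the groups overlapped for all 6 of these opsins. Only 130 of all tested genes (1.22%) did not overlap, so overlap in all 6 is near what any genes would show. The rhodopsin CPIJ020021-RA had 539, 1186, 1845, 2026, 1668, 3407 and 3937 CPM in pallens 1 to 7 and 1528, 1972, 851, 923 and 1171 CPM in quinquefasciatus 1 to 5. Its means were 2087 ± 1198 in pallens and 1289 ± 465 in quinquefasciatus, and the fitted change was 0.70 on the log2 scale (SE 0.42, edgeR adjusted p = 0.483).

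The other opsin-1 models showed smaller differences still. CPIJ011573-RA had 136 to 527 CPM (median 431) in pallens and 335 to 719 CPM (median 364) in quinquefasciatus (log2 change -0.10, SE 0.31, edgeR adjusted p = 0.915). CPIJ011571-RA had 24.6 to 46.1 CPM (median 30.9) in pallens and 16.3 to 34.3 CPM (median 28.8) in quinquefasciatus (log2 change 0.29, SE 0.24, edgeR adjusted p = 0.612). The sign of the CPIJ011573-RA value is not firm, since it was 0.16 without quinquefasciatus 2 and 0.052 without pallens 1.

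Among the rest of the family, the rhodopsin CPIJ013056-RA averaged 93.2 ± 50.9 CPM in the pallens pools and 44.2 ± 20.8 CPM in the quinquefasciatus pools (log2 change 1.08, SE 0.42, edgeR adjusted p = 0.302). The ultraviolet-sensitive opsin CPIJ009246-RA averaged 116 ± 81.4 CPM in the pallens pools and 76.4 ± 35.97 CPM in the quinquefasciatus pools, with a log2 change of 0.61 (edgeR adjusted p = 0.542), and that value was -0.014 without pallens 6 and 7. The rhodopsin CPIJ011576-RA averaged 7.02 ± 3.07 CPM in the pallens pools and 4.46 ± 3.37 CPM in the quinquefasciatus pools, with a log2 change of 0.69 (edgeR adjusted p = 0.563). Only 10.96% to 17.2% of that model was covered in any library, so its reads come from a short stretch.

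The arrestins, TRP channels and other opsins made up a context list of 25 genes by the words of their descriptions, with the 2 models left out. Of these, 16 were tested, and the edgeR test called 0 of them, against 0.537% of all tested genes. At an unadjusted p under 0.05 there were 4 of 16, 3 higher and 1 lower in pallens, against 1382 of 10617 (13.02%) over all tested genes. DESeq2 called 0 of the 16, against 2.78% of all tested genes. The median log2 change of the list was 0.24, against 0.02 over all tested genes, and it was 0.05 without pallens 6 and 7.

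Arrestins bind activated receptors and stop their signal, although the 5 tested here are of the beta-arrestin and arrestin-domain kinds, which act on many receptors. The highest change was that of the beta-arrestin CPIJ017114-RA, at 2.64 ± 0.576 CPM in the pallens pools and 1.28 ± 0.906 CPM in the quinquefasciatus pools (log2 change 1.03, edgeR adjusted p = 0.302). The other beta-arrestin, CPIJ016988-RA, had a log2 change of 0.05 (edgeR adjusted p = 0.969), which turned negative without pallens 4, without quinquefasciatus 4 or without quinquefasciatus 5. Log2 changes were -0.43 for CPIJ008375-RA, -0.16 for CPIJ008374-RA and -0.11 for CPIJ008372-RA, all arrestin-domain models, with edgeR adjusted p of 0.329, 0.861 and 0.845. The value for CPIJ008374-RA was 0.14 without quinquefasciatus 2.

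Painless is a TRP channel known in *Drosophila* larvae for sensing noxious heat. Of 4 tested TRP models, the painless model CPIJ014493-RA had the smallest p. It averaged 20.7 ± 6.06 CPM in the pallens pools and 10.7 ± 4.61 CPM in the quinquefasciatus pools (log2 change 0.94, SE 0.30, edgeR adjusted p = 0.201). Log2 changes were 0.31 for the painless model CPIJ006747-RA (edgeR adjusted p = 0.445) and 0.15 for the painless model CPIJ014495-RA (edgeR adjusted p = 0.829, and -0.013 without pallens 7). The remaining model, CPIJ018599-RA, described only as a transient receptor potential channel, had a log2 change of 0.18 (edgeR adjusted p = 0.833). The neuropsin precursor CPIJ004040-RA, which matches the word opsin by its letters and whose kind the description leaves unclear, had a log2 change of 0.08 (edgeR adjusted p = 0.910), and its sign turned without pallens 7 or without quinquefasciatus 3.

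The words of the list missed the visual arrestins and TRPL, which carry other names here. These 4 models were added after their values were seen and are given with no test. Phosrestin II (CPIJ003101-RA), a visual arrestin in *Drosophila*, averaged 313 ± 179 CPM in the pallens pools and 200 ± 102 CPM in the quinquefasciatus pools. The phosrestin-1 models averaged 192 ± 46.7 in pallens and 181 ± 62.2 CPM in quinquefasciatus for CPIJ012143-RA, and 237 ± 52.9 in pallens and 238 ± 79.5 CPM in quinquefasciatus for CPIJ014777-RA. TRPL (CPIJ005741-RA), a light-activated channel, averaged 170 ± 92.2 CPM in the pallens pools and 131 ± 75.1 CPM in the quinquefasciatus pools. All 4 overlapped between the subspecies, and their means differed by less than the larger of the SDs. Only 1.22% of all tested genes did not overlap, so overlap in all 4 is near what any genes would show.

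Visual genes as a group varied with the pool. Of the 10 opsins, visual arrestins and TRPL other than the 2 models, 6 were highest in pallens 7 and 3 in quinquefasciatus 2, and 6 were lowest in pallens 1. The visual arrestins and TRPL were added to this group after their values were seen. CPIJ004067-RA had its highest level in pallens 7 and, among pallens, its lowest in pallens 1. CPIJ012052-RA differed, with its highest level in pallens 6 and, among pallens, its lowest in pallens 4.

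**Figure D4:**
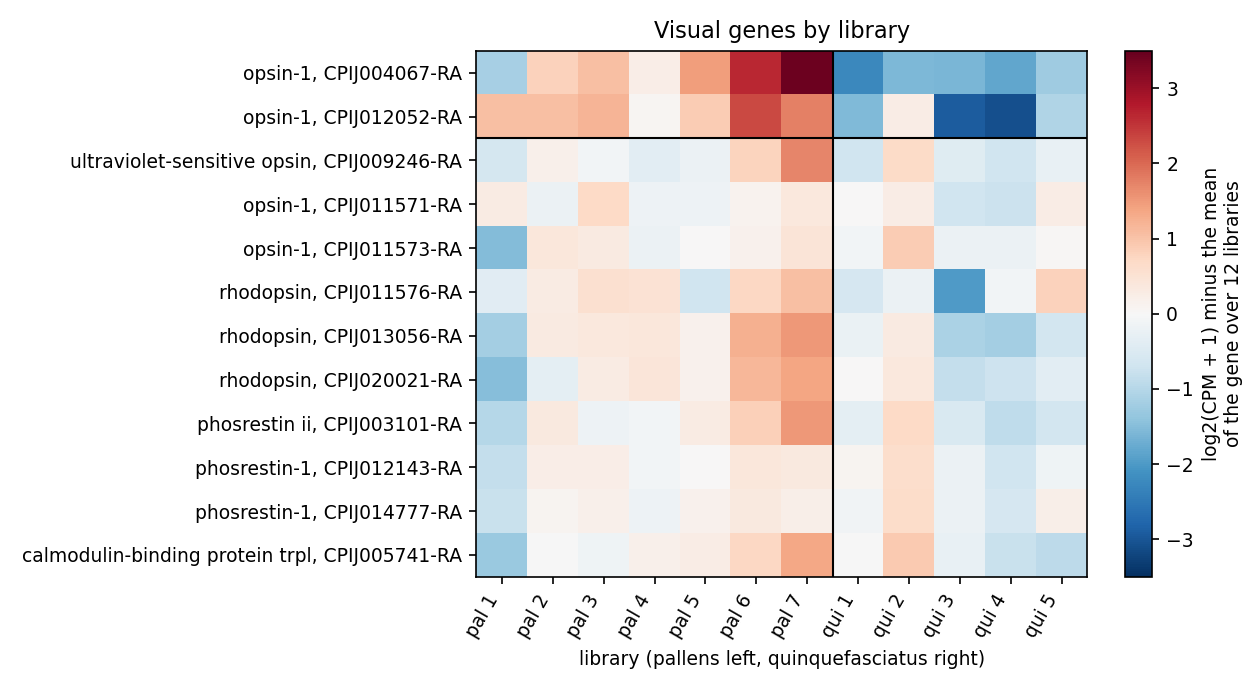
Log2(CPM + 1) of 12 visual genes in each library, minus the mean of the gene over all 12 libraries, with pallens (pal) left and quinquefasciatus (qui) right of the vertical line. The 2 rows above the horizontal line are CPIJ004067-RA and CPIJ012052-RA; they are the rows with the deepest contrast between the sides, and pallens 7 is red in nearly every row.

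CPIJ004067-RA was set beside the 10 other visual genes within each subspecies by Pearson's r of log2(CPM + 1). Over the 7 pallens libraries r ran from 0.14 to 0.96 (median 0.88), and over the 5 quinquefasciatus libraries from -0.19 to 0.48 (median 0.13), for a model with 7 to 15 reads a library there. In pallens r was 0.96 with phosrestin II (CPIJ003101-RA), 0.95 with TRPL (CPIJ005741-RA), 0.94 with the rhodopsin CPIJ013056-RA and 0.91 with both the rhodopsin CPIJ020021-RA and the ultraviolet-sensitive opsin CPIJ009246-RA. It was 0.85 and 0.84 with the phosrestin-1 models CPIJ014777-RA and CPIJ012143-RA, 0.77 with the opsin-1 model CPIJ011573-RA, 0.61 with the rhodopsin CPIJ011576-RA and 0.14 with the opsin-1 model CPIJ011571-RA. So r was high with most of these genes in pallens and low with the opsin-1 model CPIJ011571-RA. The phosrestins and TRPL among them were added after their values were seen. The TRP channel CPIJ018599-RA, which is not among the 10, had r of 0.04 in pallens and 0.52 in quinquefasciatus. No r over all tested genes is given within a subspecies, so how usual such values are in these pools is not known.

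For CPIJ012052-RA and the same 10 genes, r ran from 0.28 to 0.71 (median 0.45) over the pallens libraries and from 0.47 to 0.95 (median 0.89) over the quinquefasciatus libraries. The model had 13, 53, 2, 1 and 15 reads in quinquefasciatus 1 to 5, so r there rests on few reads outside quinquefasciatus 2. Within quinquefasciatus the highest was with the phosrestin-1 model CPIJ014777-RA (0.95), and the lowest were with TRPL (CPIJ005741-RA, 0.65) and the rhodopsin CPIJ011576-RA (0.47). Within pallens the highest was with the ultraviolet-sensitive opsin CPIJ009246-RA (0.71) and the lowest with the opsin-1 model CPIJ011573-RA (0.28). With the TRP channel CPIJ018599-RA, not among the 10, r was -0.19 in pallens and 0.74 in quinquefasciatus. The difference in r between the subspecies was not tested. These are descriptions over few pools, which can differ in depth, larval stage and amount of visual tissue, and no p is given.

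Against the summed level of the other 11 opsins, CPIJ004067-RA had r = 0.72 and Spearman's rho = 0.62 over 12 libraries, and r = 0.65 without pallens 1 and pallens 7. Within pallens r was 0.93, and within quinquefasciatus -0.04. CPIJ012052-RA had r = 0.54 and rho = 0.60 over 12 libraries, and r = 0.86 without pallens 1 and pallens 7. Within pallens r was 0.47, and within quinquefasciatus 0.94, where quinquefasciatus 3 had 2 reads of the model and quinquefasciatus 4 had 1. The models correlated with each other at r = 0.79 and rho = 0.87 over 12 libraries, at 0.71 without pallens 6 and 7, at 0.67 within pallens and at 0.25 within quinquefasciatus, so part of the pooled value is the difference between the subspecies that chose them.

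Likeness to each model was also ranked over all 12 libraries, which takes in the subspecies difference that chose the models and so favours genes that differ in the same way. For CPIJ004067-RA the described genes with the highest r were zinc finger protein 449 (CPIJ001474-RA, 0.93), translocase of outer membrane 34 (CPIJ001395-RA, 0.91), which assists protein import into mitochondria, and alanine-glyoxylate aminotransferase (CPIJ005222-RA, 0.91). A ring finger protein (CPIJ006036-RA), a nuclear body associated kinase (CPIJ005449-RA) and imaginal discs arrested (CPIJ019535-RA) followed at 0.90. The mitochondrial ribosomal protein L9 (CPIJ013282-RA), kinectin (CPIJ006680-RA), a rac serine/threonine kinase (CPIJ007754-RA) and lysyl-tRNA synthetase (CPIJ017452-RA) were at 0.89. Over all 10616 other tested genes the median r was 0.03 and the 99th percentile 0.84. Within pallens alone these 10 genes had r of 0.72 to 0.95, and phosrestin II (CPIJ003101-RA), which is not among them, had 0.96.

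For CPIJ012052-RA the highest r were those of sphingomyelin phosphodiesterase 2 (CPIJ019984-RA, 0.92), eukaryotic translation initiation factor 3 subunit 4 (CPIJ015350-RA, 0.92) and transport and Golgi organization (CPIJ015109-RA, 0.89). Heparan sulfate n-deacetylase/n-sulfotransferase (CPIJ008241-RA) and the mitochondrial ribosomal protein S22 (CPIJ007012-RA) were at 0.88. The mitochondrial ribosomal protein L3 (CPIJ017407-RA), lola (CPIJ015577-RA), a transcription factor of axon guidance in *Drosophila*, the ribosomal proteins L38 (CPIJ005613-RA) and P0 (CPIJ003159-RA), and an Hsp70-interacting protein (CPIJ010016-RA) were at 0.87. Over all tested genes the median was 0.02 and the 99th percentile 0.79. Within pallens alone these 10 genes had r of 0.23 to 0.89, with sphingomyelin phosphodiesterase 2 (CPIJ019984-RA) at 0.35 and S22 (CPIJ007012-RA) at 0.23. The lists of 10 shared 0 genes, and both change with the pools used: leaving out a library kept 2 to 7 of 10 for CPIJ004067-RA and 3 to 9 of 10 for CPIJ012052-RA. CPIJ012052-RA ranked 230th by likeness to CPIJ004067-RA, and CPIJ004067-RA ranked 108th by likeness to CPIJ012052-RA.

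Other genes of vision and of the nervous system were taken as lists by the words of their descriptions. Over all 10617 tested genes, the edgeR test called 0.537%, 13.02% had an unadjusted p under 0.05 and DESeq2 called 295 (2.78%). Of 44 phototransduction partners (G protein subunits, phospholipase C, kinases and retinoid proteins), 26 were tested and the edgeR test called 0, with 2 at an unadjusted p under 0.05, both higher in pallens, a smaller share than the 13.02% of all genes, and 0 by DESeq2. Their median log2 change was 0.11. The smallest p belonged to a retinal degeneration B model (CPIJ017317-RA), a phosphatidylinositol transfer protein named for a *Drosophila* eye mutant, at 21.2 ± 5.49 CPM in the pallens pools and 14.2 ± 2.63 CPM in the quinquefasciatus pools (log2 change 0.58, edgeR adjusted p = 0.256). A cellular retinaldehyde binding protein (CPIJ013676-RA), of a family that carries retinoids, had 15.9 ± 15.8 CPM in pallens and 3.98 ± 3.79 CPM in quinquefasciatus (log2 change 1.99, edgeR adjusted p = 0.291). Its log2 change was 2.70 without quinquefasciatus 2 and 1.52 without pallens 2.

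Of 17 genes of eye pigment synthesis and transport, 14 were tested and the edgeR test called 0, with 1 at an unadjusted p under 0.05, lower in pallens, a smaller share than the 13.02% of all genes. DESeq2, which called 2.78% of all genes, called that gene, a xanthine dehydrogenase/oxidase (CPIJ013919-RA) of the enzyme family that acts in pteridine synthesis, which had 66.2 ± 19.99 CPM in pallens and 135 ± 41.1 CPM in quinquefasciatus (log2 change -1.03, edgeR adjusted p = 0.104, DESeq2 adjusted p = 0.0110). Without pallens 1 its edgeR adjusted p was 0.0492. Sepiapterin reductase (CPIJ000511-RA), also of pteridine synthesis, had 24.6 ± 2.04 CPM in pallens and 30.0 ± 5.80 CPM in quinquefasciatus (log2 change -0.29, edgeR adjusted p = 0.416). The median log2 change of the list was -0.13, with 5 of 14 above 0.

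Of 19 eye development genes, 14 were tested and the edgeR test called 0, with 2 at an unadjusted p under 0.05, both higher in pallens, a share near the 13.02% of all genes, and 0 by DESeq2. Both are models of prospero, a transcription factor of neurons and of a *Drosophila* photoreceptor class. CPIJ004053-RA had 38.7 ± 15.1 CPM in pallens and 20.4 ± 6.94 CPM in quinquefasciatus (log2 change 0.93, edgeR adjusted p = 0.216). CPIJ004052-RA had 144 ± 65.9 CPM in pallens and 85.0 ± 34.4 CPM in quinquefasciatus (log2 change 0.76, edgeR adjusted p = 0.384). The median log2 change of the list was 0.13.

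Of 23 neuronal and synaptic genes, 16 were tested and the edgeR test called 0, with 2 at an unadjusted p under 0.05, both higher in pallens, a share near the 13.02% of all genes. They are unc-13 (CPIJ006394-RA), which primes synaptic vesicles, and a synaptotagmin (CPIJ004781-RA), of the family of calcium sensors for vesicle release. Unc-13 had 35.2 ± 11.7 CPM in pallens and 19.9 ± 1.06 CPM in quinquefasciatus (log2 change 0.82, edgeR adjusted p = 0.132), and it was the 1 gene of the list among the 2.78% that DESeq2 called (adjusted p = 0.0252). The synaptotagmin had 19.6 ± 5.26 CPM in pallens and 12.95 ± 2.30 CPM in quinquefasciatus (log2 change 0.60, edgeR adjusted p = 0.261). The median log2 change of the list was 0.03.

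**Figure D5:**
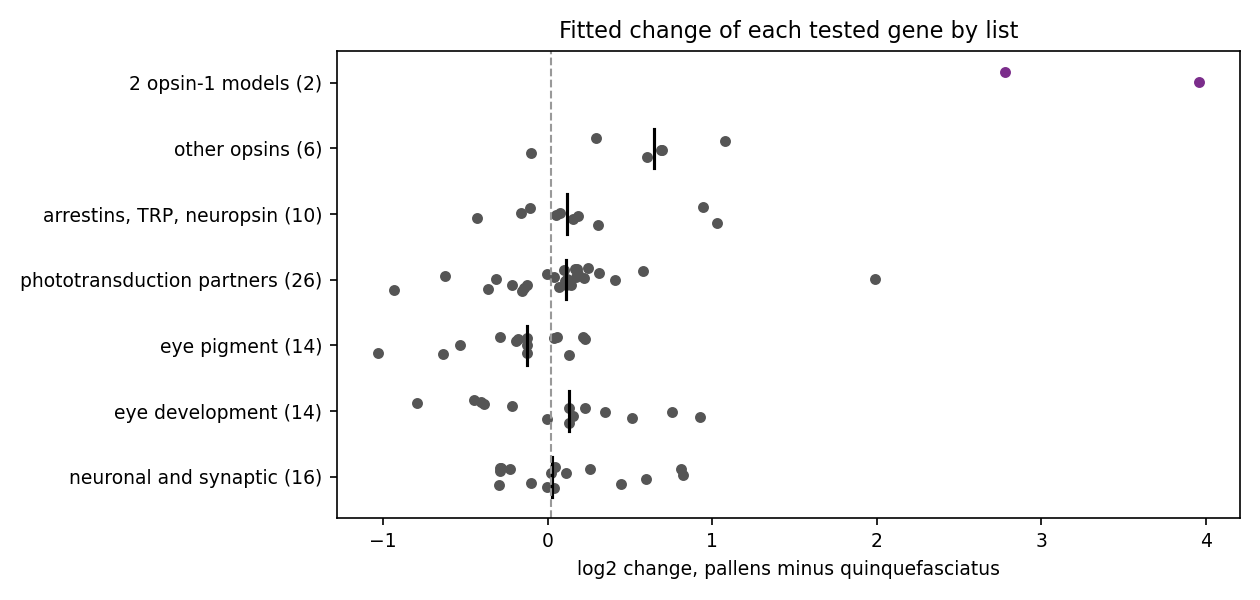
Fitted log2 change, pallens minus quinquefasciatus, of each tested gene of the 2 opsin-1 models and 6 groups of other genes, with the number tested in brackets. Points are genes, black bars are medians of the groups and the dashed line is the median of all tested genes (0.02); the 2 opsin-1 models, chosen for this contrast, are at 2.78 and 3.96, and every other listed gene is at or below 1.99.

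Gene models beside the 2 opsin-1 models did not show the same values. On supercont3.60, which holds 37 models, CPIJ004068-RA (suppressor of T-cell receptor signaling 1) starts 3393 bases after CPIJ004067-RA and had 20.7 ± 5.63 CPM in pallens and 19.9 ± 6.72 CPM in quinquefasciatus (log2 change 0.05, edgeR adjusted p = 0.944). CPIJ004069-RA, a ferritin light chain for iron storage, had a log2 change of -0.02 (edgeR adjusted p = 0.989). On the other side, the juvenile hormone esterase model CPIJ004066-RA was below the filter and the conserved hypothetical protein CPIJ004065-RA had a log2 change of 0.10 (edgeR adjusted p = 0.887).

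On supercont3.358, which holds 3 models, CPIJ012052-RA is the first. The phenylalanyl-tRNA synthetase alpha chain model CPIJ012053-RA, 73595 bases away, was below the filter. The LIM domain-binding protein CPIJ012054-RA had 340 ± 98.9 CPM in pallens and 428 ± 122 CPM in quinquefasciatus (log2 change -0.33, edgeR adjusted p = 0.570).

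Summed levels of some tissue markers moved with the same pools. The 12 storage protein genes of the fat body, all of them read, summed to 32416 to 170830 CPM (median 146550) in pallens and 89540 to 162280 CPM (median 150900) in quinquefasciatus. The lowest sums were 32416 CPM in pallens 7 and 38997 CPM in pallens 6, the pools highest in both opsin-1 models, against 106090 CPM or more in the other pallens pools. The 108 genes whose descriptions hold trypsin, peritrophin or maltase, a gut list whose words would also take in antitrypsins, were all read. They summed to 4085 to 14410 CPM (median 5428) in pallens and 8742 to 18154 CPM (median 9521) in quinquefasciatus. Here too pallens 6 and 7 were lowest, at 4085 and 4623 CPM, while pallens 1 was the highest pallens pool.

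Over 12 libraries r with CPIJ004067-RA was -0.71 for the storage sum and -0.80 for the gut sum. With CPIJ012052-RA it was -0.55 and -0.66. For the muscle, neuronal and cuticle sums r was -0.48, 0.35 and 0.34 with CPIJ004067-RA, and -0.38, 0.40 and 0.49 with CPIJ012052-RA. These pooled values take in the difference between the subspecies that chose the models. The 23 neuronal genes, all read, summed to 277 to 370 CPM (median 328) in pallens and 279 to 357 CPM (median 330) in quinquefasciatus, a narrow range. The 62 muscle genes, all read, summed to 32108 to 77292 CPM in pallens and 44481 to 87523 CPM in quinquefasciatus, and the 138 cuticle genes, all read, to 2031 to 33333 CPM in pallens and 1503 to 16761 CPM in quinquefasciatus. The part of the storage, gut, muscle and cuticle levels in the opsin-1 values was not tested, and the labels give no larval stage within which the pools could be compared.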

How the data were processed

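Poly(A) RNA of pooled larvae was sequenced in 12 libraries, per the labels' protocols. The authors deposited a table per library that holds, per the file headers, the count of uniquely mapped reads per gene model, RPKM, and how many percent of its length reads covered. The deposited counts summed to the totals in the headers, and genes left out of a table were set to 0. No aligner, counter or build name is given in the sources used here. Counting unique reads takes reads from near-identical copies, and without strand overlapping genes cannot be told apart.

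Counts were fitted with the edgeR 4.0.16 quasi-likelihood test in R 4.3.3 (TMM, filterByExpr, robust dispersion, all 12 libraries, pallens minus quinquefasciatus). P-values were adjusted over 10617 genes with a threshold of 0.05. The script was tested on simulated data, where it recovered 20 of 100 changes of 2-fold and 95 of 100 changes of 4-fold. A gene that was not called can therefore still differ 2-fold. The 2 models and the gene lists were chosen with earlier results of these data known. The lists, by words in the descriptions, also took in a few unrelated models such as syntaxin-18 and rough deal. Named were all tested opsins and arrestins, the TRP genes and list genes with the smallest p, the 10 described genes most alike by Pearson's r of log2(CPM + 1), and neighbouring models. Alternatives were other normalizations, filters, DESeq2 1.42.0, limma 3.58.1 on log2(RPKM + 1 or 0.1), another pseudocount (0.1 CPM) or Spearman's rho for likeness, and leaving out each library. Leaving out pallens 6 and 7, or pallens 1 and quinquefasciatus 5, was added after the data were seen.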

Additional observations from a re-analysis of the deposited data

Results flagged for a closer look

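A search for a library standing apart from the rest of its group used its gap to the nearest library over the range of the group. It was made in 44 groups of values and found 6. The threshold flags about 1 in 20 groups by chance for independent, normally distributed values. CPM of genes that vary together by pool are not such values, so the 6 cannot be set against that rate. Quinquefasciatus 2, the quinquefasciatus pool with the most CPIJ012052-RA, stood apart in 4 of them. It had 719 CPM of the opsin-1 model CPIJ011573-RA, next to 396 CPM in the nearest quinquefasciatus pool. It had 139 CPM of the ultraviolet-sensitive opsin CPIJ009246-RA, next to 72.1 CPM, and 380 CPM of phosrestin II (CPIJ003101-RA), next to 184 CPM. It also had 20.3 CPM of the arrestin-domain model CPIJ008374-RA, next to 11.3 CPM. Pallens 7, the pool with the most CPIJ004067-RA, had 288 CPM of CPIJ009246-RA, next to 148 CPM in the nearest pallens pool. Pallens 2 had 17.6 CPM of the TRP channel CPIJ018599-RA, next to 8.62 CPM. Neither CPIJ004067-RA nor CPIJ012052-RA had such a library in either subspecies by this measure.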

How the results depend on the processing

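Over 21 alternatives the log2 change stayed positive, at 2.77 to 4.31 for CPIJ004067-RA and 2.32 to 3.87 for CPIJ012052-RA. Leaving out each library gave 3.36 to 4.16 for CPIJ004067-RA and 2.47 to 3.87 for CPIJ012052-RA, with the highest value of CPIJ012052-RA without quinquefasciatus 2. DESeq2 called 1 eye pigment gene (CPIJ013919-RA, lower in pallens) and 1 neuronal gene (CPIJ006394-RA, higher). Leaving out each library gave 0 to 1 eye pigment genes, and leaving out pallens 1 and quinquefasciatus 5 gave 1 (CPIJ013919-RA, edgeR adjusted p = 0.0485). No other list count changed.

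Of the 10 genes most like CPIJ004067-RA, 3 were kept with Spearman's rho, 2 to 7 when each library was left out, 1 without pallens 6 and 7 and 2 without pallens 1 and quinquefasciatus 5. For CPIJ012052-RA, 6 were kept with a pseudocount of 0.1 CPM, 3 with Spearman's rho, 3 to 9 when each library was left out, 4 without pallens 6 and 7 and 1 without pallens 1 and quinquefasciatus 5. The cause was not tested.

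Uncalled log2 changes near 0 turned sign. When each library was left out, they ran from -0.059 to 0.16 for CPIJ004040-RA, -0.40 to 0.14 for CPIJ008374-RA, -0.18 to 0.16 for CPIJ011573-RA, -0.17 to 0.31 for CPIJ016988-RA and -0.013 to 0.30 for CPIJ014495-RA. Without pallens 6 and 7 they were -0.012 for CPIJ004040-RA, -0.014 for CPIJ009246-RA and -0.11 for CPIJ014495-RA. Without pallens 1 and quinquefasciatus 5 they were 0.026 for CPIJ011573-RA and -0.025 for CPIJ016988-RA.

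The count of genes called among all tested was 57, against 295 with DESeq2, 118 and 110 with limma (pseudocount 1 and 0.1), 12 under the stricter filter, 9 to 229 with each library left out, 5 without pallens 6 and 7 and 366 without pallens 1 and quinquefasciatus 5. No paired analysis was possible because the replicate numbers were given in accession order. With 1 to 15 reads in most quinquefasciatus libraries, depth limits the levels of both opsin-1 models there.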
